A study of Mus musculus with 25 samples.

Results

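Imprinted growth genes are genes that mammals read from the maternal or the paternal copy alone and that act on growth before and after birth. The 10 genes Meg3, Rian, Mirg, Dlk1, Igf2, H19, Plagl1, Peg3, Grb10 and Ndn were looked up by their exact symbols in both tables of the study. All 10 were found in both, among 15315 genes in the long-term table and 14007 in the short-term table. All 10 also had enough reads to be tested in both.

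The measurements are RNA-seq of whole pituitaries and pituitary tumors from shRb mice. These mice carry Rosa26-rtTA and a Col1a1-targeted shRNA against Rb that is linked to GFP, made from the 1 embryonic stem cell clone shRb5-4, and every mouse had received doxycycline (dox) in the drinking water, so no group was without Rb knockdown at some time. The rtTA comes from the broadly active Rosa26 promoter, so knockdown was not limited to the pituitary. The long-term experiment (poly(A) libraries) held 3 mice given dox for 6 weeks (6w+dox), 4 given dox for 12 weeks (12w+dox) and 5 rescue mice with 6 weeks on and then 6 weeks off dox (12w-res). The short-term experiment (libraries depleted of ribosomal RNA) held 3 mice on dox for 16 weeks (16w +dox) and, following that treatment, 4 mice 1 day after its end (1d -dox), 3 mice 3 days after (3d -dox) and 3 mice 5 days after (5d -dox). All 6w+dox mice were female, 12w+dox held 2 females (replicates 1 and 2) and 2 males, and 12w-res held 3 females and 2 males (replicates 1 and 2). In the short-term experiment the groups on dox and 3 days off were all male, and those 1 and 5 days off all female, so time off dox and sex cannot be told apart when either female group is set against 16w +dox.

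An imprinted gene is marked in the germ line by DNA methylation at a control region, and the mark is kept on the same parental copy through cell division. Dlk1, a Notch-related membrane protein of endocrine progenitors and hormone cells, is read from the paternal copy, while its neighbours Meg3, Rian and Mirg are non-coding RNAs read from the maternal copy. MEG3 is known in human pituitary tumors for its loss in non-functioning adenomas. Igf2, a growth factor of fetal life, is paternal, and H19, the non-coding RNA beside it, is maternal. Plagl1 is a zinc-finger factor known to act on several other imprinted genes, Grb10 is an adaptor that restrains insulin and IGF receptors, Peg3 is a zinc-finger protein and Ndn is a growth-restraining protein of the MAGE family. The libraries do not separate the parental copies, so every value below is the sum of both.

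By the RefSeq annotation of GRCm38.p6, Dlk1 (chr12:109452485-109463336), Meg3 (chr12:109540996-109571729), Rian (chr12:109603945-109661716) and Mirg (chr12:109734981-109749458) lie side by side. H19 (chr7:142575530-142578146) and Igf2 (chr7:142650768-142666816) form another pair. Peg3 (chr7:6703892-6730462) and Ndn (chr7:62348277-62349928) lie elsewhere on the same chromosome, Plagl1 is at chr10:13090832-13131694 and Grb10 at chr11:11930499-12037428. Whether the reads were counted by strand is not given in the sources used here, so reads of Igf2 and Igf2os, of Peg3 and Peg3os, of Plagl1 and Hymai, and of Meg3 or Rian and Rtl1, which overlap in the annotation, may not be separate.

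RefSeq promoter windows, which run from 250 bases before a start site to 50 after it, were at hand for 9 of the 10 genes (14 windows). They are shown for Meg3, Dlk1, Igf2, Grb10 and Plagl1, the genes that the results turn on and the 1 member with an E2F motif, since RB holds back E2F factors. Capitals mark an E2F motif (TTTCCCGC, TTTGGCGC, TTTCGCGC or TTTGCCGC, on either strand) or a cAMP response element (TGACGTCA, which reads the same on both strands).
Meg3, chr12:109540746-109541045, plus strand: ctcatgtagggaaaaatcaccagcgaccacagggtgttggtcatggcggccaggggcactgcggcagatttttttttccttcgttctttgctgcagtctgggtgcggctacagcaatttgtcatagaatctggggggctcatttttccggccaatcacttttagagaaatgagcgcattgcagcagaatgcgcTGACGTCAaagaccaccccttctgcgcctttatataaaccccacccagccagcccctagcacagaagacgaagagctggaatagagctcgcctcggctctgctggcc
Dlk1, chr12:109452573-109452872, plus strand: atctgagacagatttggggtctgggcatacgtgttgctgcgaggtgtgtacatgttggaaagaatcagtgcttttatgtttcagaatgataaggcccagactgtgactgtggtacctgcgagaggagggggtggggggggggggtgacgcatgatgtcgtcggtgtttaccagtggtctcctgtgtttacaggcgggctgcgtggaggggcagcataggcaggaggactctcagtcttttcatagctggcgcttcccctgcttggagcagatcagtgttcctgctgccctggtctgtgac
Igf2, the most downstream of its 4 windows, chr7:142657447-142657746, minus strand: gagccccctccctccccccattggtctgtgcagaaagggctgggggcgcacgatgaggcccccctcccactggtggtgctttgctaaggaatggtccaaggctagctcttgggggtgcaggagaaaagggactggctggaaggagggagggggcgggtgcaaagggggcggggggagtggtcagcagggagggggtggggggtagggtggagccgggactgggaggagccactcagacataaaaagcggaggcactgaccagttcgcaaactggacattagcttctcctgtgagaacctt
Grb10, chr11:12037371-12037670, minus strand: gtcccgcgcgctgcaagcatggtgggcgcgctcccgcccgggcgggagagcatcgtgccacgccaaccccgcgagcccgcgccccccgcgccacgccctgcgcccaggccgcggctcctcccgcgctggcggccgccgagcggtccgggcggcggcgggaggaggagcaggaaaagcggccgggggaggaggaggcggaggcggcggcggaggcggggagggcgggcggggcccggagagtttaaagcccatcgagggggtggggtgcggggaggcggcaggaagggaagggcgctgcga
Plagl1, chr10:13090582-13090881, plus strand: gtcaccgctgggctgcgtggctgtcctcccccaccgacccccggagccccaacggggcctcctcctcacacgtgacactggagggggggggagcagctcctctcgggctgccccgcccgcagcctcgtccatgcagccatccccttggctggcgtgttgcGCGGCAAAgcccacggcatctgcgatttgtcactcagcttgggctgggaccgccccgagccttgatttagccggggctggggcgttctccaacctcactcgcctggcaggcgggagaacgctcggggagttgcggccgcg
An E2F motif stood in the Plagl1 window, on the minus strand, and in none of the other 13, against 2.26% of the 32851 promoter windows counted. That count left out the windows of 1 chromosome, which holds none of the 10 genes. A cAMP response element stood in the Meg3 window shown and in that of Peg3, against 1.79% of the windows counted. These matches describe letters in these windows and are not binding sites that were measured.

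H19 and the RNAs beside Dlk1 are also the hosts of microRNAs, which these libraries do not measure as mature RNAs. The mature sequences inside H19 and Meg3 are shown, with those of 2 members of the cluster between Rian and Mirg that share a seed (bases 2 to 8, in capitals).
miR-675-5p (H19): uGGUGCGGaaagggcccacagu
miR-675-3p (H19): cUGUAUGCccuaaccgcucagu
miR-770-5p (Meg3): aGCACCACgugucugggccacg
miR-770-3p (Meg3): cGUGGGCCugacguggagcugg
miR-1906 (Meg3): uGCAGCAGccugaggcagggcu
miR-379-5p: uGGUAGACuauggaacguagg
miR-1193-5p: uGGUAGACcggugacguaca
Of the 57 microRNA genes annotated from Dlk1 to Mirg, 2 were listed in the long-term table and 25 in the short-term table. Summed over those 25, the level was 5.85 to 10.7 FPM at 16w +dox, 6.99 to 12.9 after 1 day off dox, 10.9 to 11.1 after 3 days and 9.17 to 10.1 after 5 days, and the ranges overlapped except that 3d -dox lay above 16w +dox and 5d -dox.

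The deposited values are fragment counts scaled for depth by the authors' size factors (FPM), not divided by gene length, so a gene is compared between mice and not with other genes. Depth was 19066053 to 28968476 recovered reads on genes per mouse in the long-term table and 9573101 to 13036900 in the short-term table. Rb1, the target of the shRNA, was at 1.86 to 5.09 FPM at 6w+dox, 2.42 to 4.05 at 12w+dox and 16.1 to 20.3 in 12w-res, the group taken off dox. In the short-term mice Rb1 stayed between 3.47 and 6.03 FPM while GFP was at 1025 to 1360.4 FPM on dox and 9.34 to 15.2 after 5 days off. Pomc, the hormone precursor of melanotrophs and corticotrophs, took 12.9% to 43.2% of long-term reads. Summed markers of the anterior hormone cells (9 genes such as Gh and Prl) were 58702 to 94201 FPM at 6w+dox, 1219 to 13065.5 at 12w+dox and 17348 to 34999 in 12w-res. For whole glands, fewer cells of a type and less RNA per cell cannot be told apart.

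Across the long-term groups Igf2 and H19 rose from 6w+dox to 12w+dox, while Dlk1 and Grb10 fell. From 12w+dox to 12w-res H19 rose further and Grb10 rose to levels that overlapped those at 6w+dox. Meg3, Rian and Mirg were not called with all mice and the authors' scaling. A gene was called changed at an adjusted p under 0.05 (limma on log2(FPM + 0.5), Benjamini-Hochberg over all genes tested) with an absolute log2 fold change over 1. At 12w+dox against 6w+dox, 2 of the 10 genes were higher and 2 lower, where 3.15% of all 15315 genes were higher and 4.04% lower. Without the minimum fold, 5 of the 10 passed the adjusted p, against 22.4% of all genes. Between 12w+dox and 12w-res, 2 of 10 were higher in 12w-res and 0 lower, against 6.24% and 5.04% of all genes, and 3 of 10 passed without the minimum fold, against 37.8%. In 12w-res against 6w+dox, 2 of 10 were higher and 0 lower, against 5.81% and 5.82%, and no further member passed without the minimum fold, where 33.8% of all genes did. The groups did not overlap for 4 of 10 genes in the 12w+dox against 6w+dox comparison, 3 in 12w-res against 12w+dox and 2 in 12w-res against 6w+dox, where this held for 25.2%, 34.5% and 32.7% of all genes. The median log2 fold change of the 10 was -0.15, 0.30 and -0.12 in these comparisons, and that of all genes -0.01, -0.00 and -0.02. These comparisons share groups and are not independent of each other.

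**Figure D1:**
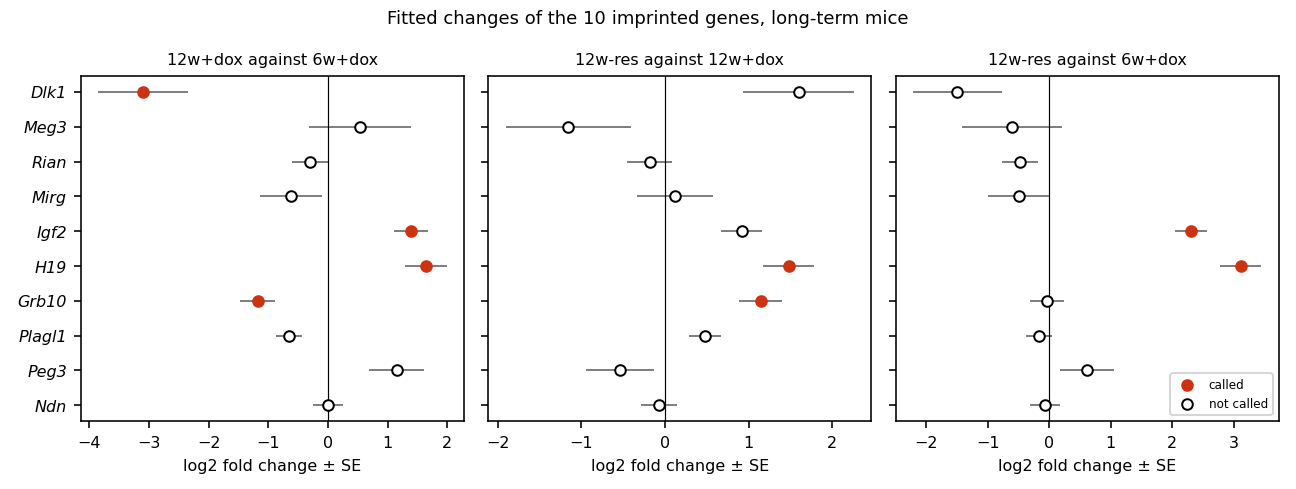
Fitted log2 fold change of FPM (horizontal axis) of the 10 genes in the long-term comparisons, as points with SE bars, filled where the gene was called. Igf2 and H19 lie right of 0 in every panel, and Grb10 and Dlk1 lie left of 0 in the first panel and right of 0 in the middle one.

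Igf2 was 9.72, 15.2 and 5.42 FPM in the 6w+dox mice, 18.9, 20.0, 29.8 and 36.4 in the 12w+dox mice and 44.5, 48.6, 51.0, 43.8 and 54.2 in the 12w-res mice. The groups stood one above the other with no overlap, at means of 10.1 ± 4.92 (SD, n = 3), 26.3 ± 8.34 (SD, n = 4) and 48.4 ± 4.39 (SD, n = 5). The rise at 12w+dox was 1.39 ± 0.28 on the log2 scale (SE, limma adjusted p = 0.00426). In 12w-res against 12w+dox it was 0.92 ± 0.24 (limma adjusted p = 0.0092), past the p but under the minimum fold. With females alone it was 1.32 (limma adjusted p = 0.0253) and without replicate 4 of 12w+dox 1.09 (limma adjusted p = 0.00564), both called. Against 6w+dox the rise was 2.31 ± 0.27 (limma adjusted p = 2.18e-05). At 12w+dox both males (29.8 and 36.4) were above both females, which was not tested.

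H19 followed the same order. It was 0.349, 1.69 and 0.704 FPM at 6w+dox (6, 38 and 17 reads), 3.28, 2.56, 3.82 and 5.05 at 12w+dox and 7.44, 8.72, 10.2, 11.6 and 19.6 in 12w-res. Again no group overlapped another. The log2 rise was 1.64 ± 0.35 at 12w+dox (limma adjusted p = 0.00576), a further 1.48 ± 0.31 in 12w-res against 12w+dox (limma adjusted p = 0.00194) and 3.12 ± 0.33 in 12w-res against 6w+dox (limma adjusted p = 1.08e-05). Since log2(FPM + 0.5) understates changes of low genes, edgeR on the recovered reads gave 1.97, 1.65 and 3.62 for these rises. The ratio of Igf2 to H19 FPM within a mouse ran from 7.71 to 27.8 at 6w+dox, 5.77 to 7.80 at 12w+dox and 2.77 to 5.98 in 12w-res.

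**Figure D2:**
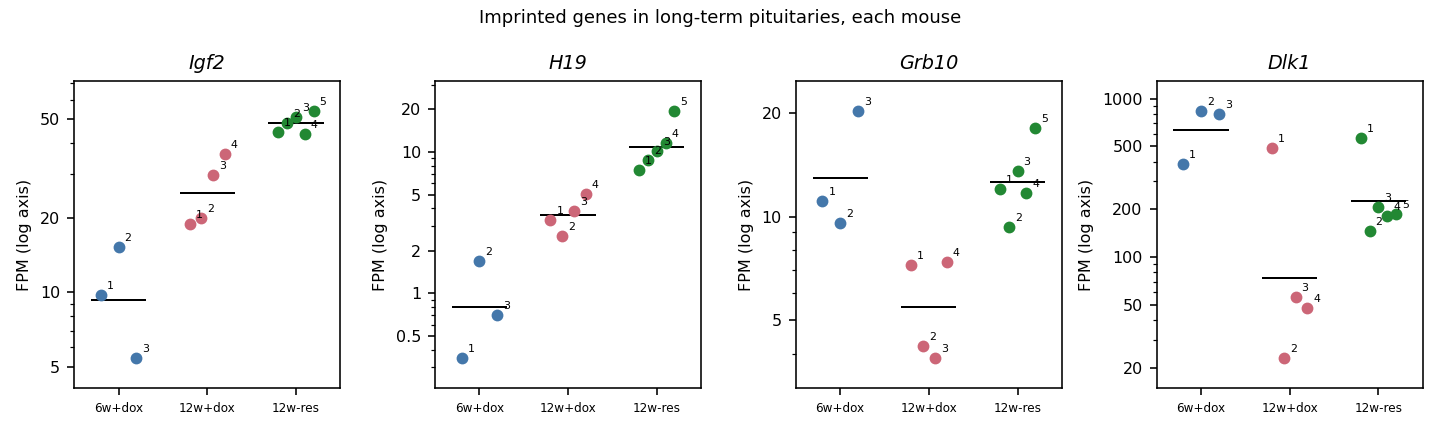
FPM (log axis) of Igf2, H19, Grb10 and Dlk1 in each long-term mouse, with the replicate number beside the point and a line at the mean of log2(FPM + 0.5). Igf2 and H19 stand in 3 separate steps, Grb10 dips at 12w+dox, and for Dlk1 replicate 1 of 12w+dox (485 FPM) lies apart from the other mice of its group.

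Markers of stromal cells moved beside Igf2 and H19 between 12w+dox and 12w-res. All 6 fibroblast markers and all 4 pericyte markers were higher in 12w-res than at 12w+dox, and the summed pericyte level was 90.7 to 116 FPM at 6w+dox, 89.8 to 210 at 12w+dox and 352 to 442 in 12w-res. The summed fibroblast level was 273 to 296, 80.3 to 308 and 495 to 1152 FPM in the same order, and no marker of either list was at 0. From 6w+dox to 12w+dox, 3 of 6 fibroblast markers and 0 of 4 pericyte markers were called lower and none higher, while Igf2 and H19 rose. The log2 change was below 0 for 4 fibroblast and 3 pericyte markers and above 0 for 2 and 1, with medians of -1.40 and -0.28. The median pericyte sum nevertheless went from 107 to 130 FPM. A sum is set mostly by its most abundant markers, which limits the values per 100 FPM of a list. Per 100 FPM of the fibroblast list, Igf2 was 1.86 to 5.58 at 6w+dox, 6.13 to 37.1 at 12w+dox and 4.71 to 9.83 in 12w-res, and H19 was 0.118 to 0.620, 1.06 to 4.76 and 1.17 to 1.76. On that scale 6w+dox stood below 12w+dox without overlap for both genes, and 12w+dox and 12w-res overlapped. Per 100 FPM of the pericyte list, Igf2 was 5.98 to 13.1, 8.99 to 33.1 and 10.5 to 14.1, with all groups overlapping, and H19 was 0.327 to 1.46, 1.56 to 4.25 and 1.97 to 5.09, with only 6w+dox apart. The part of these cells in the result was not tested.

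Grb10 was lowest at 12w+dox. Its level was 11.1, 9.58 and 20.3 FPM at 6w+dox, 7.22, 4.20, 3.88 and 7.40 at 12w+dox, and 12.1, 9.30, 13.6, 11.7 and 18.1 in 12w-res. Every 12w+dox mouse was below every other long-term mouse. The log2 change was -1.18 ± 0.29 against 6w+dox (limma adjusted p = 0.0125) and 1.14 ± 0.26 in 12w-res against 12w+dox (limma adjusted p = 0.00328), and 12w-res and 6w+dox overlapped (-0.03 ± 0.28). Without replicate 3 of 6w+dox the fall was -0.86 and without replicate 3 of 12w+dox the rise was 1.00, both under the minimum fold. The stromal markers described above rose beside Grb10 from 12w+dox to 12w-res. Per 100 FPM of the fibroblast list, Grb10 was 3.51 to 6.97 at 6w+dox, 2.34 to 4.84 at 12w+dox and 1.51 to 1.94 in 12w-res, so on that scale 12w-res lay below 12w+dox without overlap and the direction turned. The part of these cells was not tested.

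Some of these calls changed with the scaling and when females alone were used, which also left fewer mice. Sex and the number of mice cannot be told apart there. With sex as a covariate and all mice the counts of genes called stayed within 1.5 times. Scaling by total reads shifted the median change over all genes to 0.29, -0.61 and -0.33 in the long-term comparisons and to between -0.07 and 0.14 in the short-term ones. Relative to zero, Grb10 then changed by -0.88 (limma adjusted p = 0.0728) and 0.52 (limma adjusted p = 0.149), Igf2 by 0.27 and H19 by 0.87 in 12w-res against 12w+dox, each above that median in the second comparison. With females alone, 3 at 6w+dox and 2 at 12w+dox, 0 of the 10 genes were called at 12w+dox, with log2 changes of 1.02 for Igf2, 1.38 for H19, -1.16 for Grb10 and -2.58 for Dlk1 at limma adjusted p of 0.0929, 0.0783, 0.0754 and 0.125.

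Dlk1 fell the most and varied the most among the genes called. It was 386, 838 and 799 FPM at 6w+dox, 485, 23.0, 56.2 and 47.7 at 12w+dox, and 561, 147, 206, 183 and 188 in 12w-res. Replicate 1 of 12w+dox lay within the range of 6w+dox, and the other 3 mice of its group lay below every other mouse. The log2 change at 12w+dox was -3.09 ± 0.75 (limma adjusted p = 0.0113). With edgeR on the recovered reads it was -2.15 (edgeR adjusted p = 0.0733), and DESeq2 gave -2.14 with no adjusted p. Dlk1 was called by neither, so the call depends on the test. Without replicate 2 of 6w+dox the change with limma was -2.90 (limma adjusted p = 0.0542). In 12w-res against 12w+dox Dlk1 changed by 1.60 ± 0.66 (limma adjusted p = 0.0714), and without replicate 1 of 12w+dox by 2.495 (limma adjusted p = 0.000412), so 1 mouse decides that call. Against 6w+dox, 12w-res differed by -1.50 ± 0.72 (limma adjusted p = 0.124), and with only these groups in the fit the same difference was called (limma adjusted p = 0.0156).

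Markers of anterior hormone cells mostly moved with Dlk1 mouse by mouse. Of the 9 markers, 6 were lower at 12w+dox than at 6w+dox, 2 (Gh and Prl) were higher in 12w-res than at 12w+dox, and none was at 0 in a long-term mouse. The 12w+dox mouse with the highest Dlk1 also had the highest summed level, 13065.5 FPM against 1219, 3379 and 3199 in replicates 2, 3 and 4. In 12w-res, replicate 1 was again highest in both, with 34999 FPM of the markers. The mice of a group stood in one and the same order for Dlk1 and for the summed markers in 5 of the 7 groups of the study. These were 12w+dox with 4 mice, and 6w+dox, 16w +dox, 3d -dox and 5d -dox with 3 mice each. With so few mice chance alone can readily give the same order. The orders differed in 12w-res (5 mice) and 1d -dox (4 mice). At 16w +dox replicates 1 and 3 had nearly equal sums (199.4 and 199.2 FPM). Gh and Prl made up most of the sum, at means of 58670 and 10589 FPM at 6w+dox. Per 1000 FPM of these summed markers, Dlk1 was 6.58 to 13.004 at 6w+dox, 14.9 to 37.1 at 12w+dox and 7.92 to 16.0 in 12w-res. On that scale, set mostly by Gh and Prl, Dlk1 at 12w+dox lay above 6w+dox without overlap, so the direction turned. The part of these cells in the fall of Dlk1 was not tested.

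**Figure D3:**
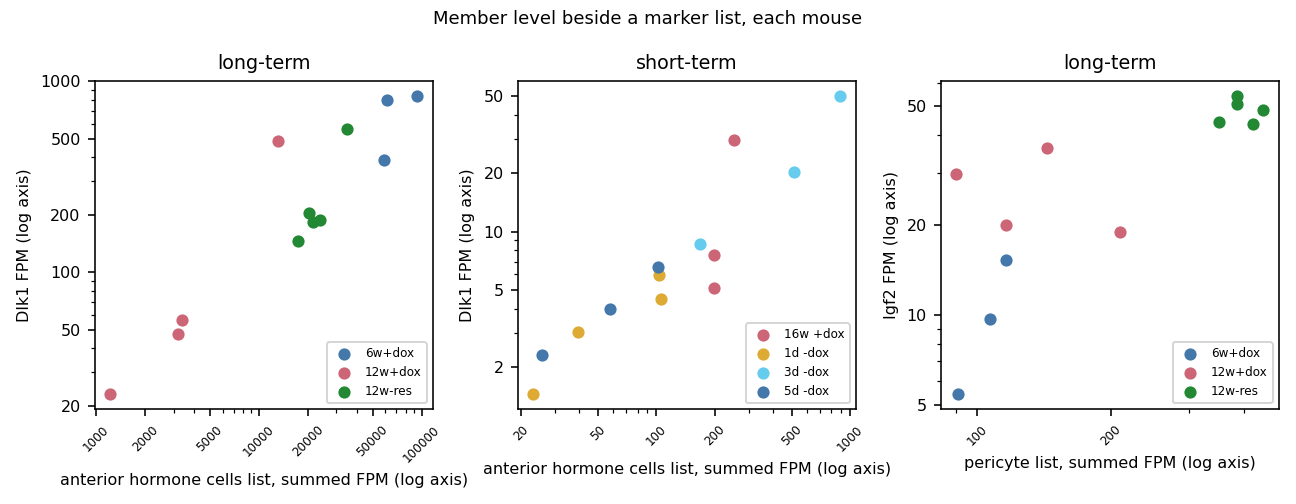
FPM of a gene (vertical, log axis) against the summed FPM of a marker list (horizontal, log axis), 1 point a mouse, coloured by group: Dlk1 with the anterior hormone cell list in the long-term mice (left) and the short-term mice (middle), and Igf2 with the pericyte list in the long-term mice (right). In both experiments mice with a higher sum mostly have more Dlk1. Igf2 is at 5.42 to 15.2 FPM at 6w+dox and 18.9 to 36.4 FPM at 12w+dox. The pericyte sums are 90.7 to 116 FPM at 6w+dox and 89.8 to 210 FPM at 12w+dox. They overlap only through replicate 3 of 12w+dox (89.8 FPM), and the part of these cells was not tested.

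Meg3 varied more among mice of one group than the groups differed. It was 103, 215 and 2360.4 FPM at 6w+dox, 393, 483, 725 and 647 at 12w+dox, and 80.8, 689.8, 165, 213 and 449 in 12w-res. The lowest and the highest mouse of 6w+dox thus held both ends of nearly the whole range, and all groups overlapped. The spread within groups was 1.39 on the log2 scale (residual SD), the 20th largest of 15315 genes, where the median gene had 0.27. Meg3 changed by 0.54 ± 0.85 at 12w+dox against 6w+dox (limma adjusted p = 0.681), by -1.16 ± 0.75 in 12w-res against 12w+dox (limma adjusted p = 0.239) and by -0.61 ± 0.82 in 12w-res against 6w+dox (limma adjusted p = 0.593). Without replicate 3 of 6w+dox, the mouse at 2360.4 FPM, the change at 12w+dox was 1.87 (limma adjusted p = 0.0334), while edgeR on all mice gave -0.67 (edgeR adjusted p = 0.597). Without replicate 1 of 6w+dox, the mouse at 103 FPM, limma gave -0.38 for the same comparison (limma adjusted p = 0.801). The sign of Meg3 at 12w+dox against 6w+dox therefore turned on replicate 1 and on the test. Leaving out replicate 3 made that rise larger. In 12w-res against 6w+dox the sign turned without replicate 3 (0.72, limma adjusted p = 0.372).

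Rian and Mirg, which are known to arise downstream of Meg3, shared its high mouse. Rian, the host of small nucleolar RNAs, was 469, 479 and 1239 FPM at 6w+dox, 506, 501, 717 and 434 at 12w+dox, and 330.1, 607, 449, 450.1 and 548 in 12w-res. Mirg, a host of microRNAs, was 3.84, 6.41 and 25.1 FPM at 6w+dox, 4.44 to 6.93 at 12w+dox and 2.18 to 8.98 in 12w-res. Replicate 3 of 6w+dox was the highest long-term mouse for all 3 RNAs, and replicate 1 of 12w-res the lowest. The log2 changes of Rian and Mirg lay between -0.62 and 0.12 in the long-term comparisons, and none passed the adjusted p. Within a mouse the ratio of Meg3 to Rian FPM ran from 0.220 to 1.90 over the long-term mice, so Meg3 varied beyond Rian.

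**Figure D4:**
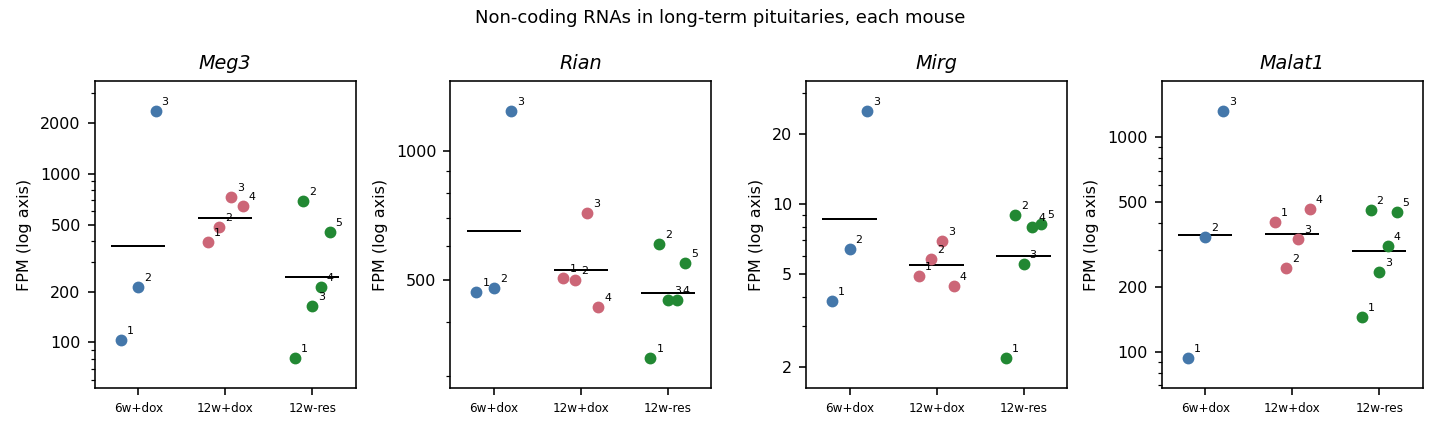
FPM (log axis) of Meg3, Rian, Mirg and Malat1 in each long-term mouse, with replicate numbers and a line at the mean of log2(FPM + 0.5). Replicate 3 of 6w+dox is the highest mouse in all 4 panels, and the groups overlap in each.

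The 5 genes whose levels followed Meg3 most closely over the 12 long-term mice were Leng8 (Pearson r = 0.98), Ankrd24 (0.97), Ogt (0.97), Ccnl2 (0.97) and Arglu1 (0.97), of 13877 genes with a mean of at least 1 FPM. Rian stood at r = 0.85 and Mirg at 0.80, ranks 273 and 451, and Dlk1 at -0.25. Over the 13 short-term mice the 5 closest were Rsrc2 (0.95), Zzz3 (0.95), Ppig (0.94), Phf14 (0.93) and Hmgn3 (0.92) of 11556 genes. Mirg stood at 0.75, Rian at 0.66 and Dlk1 at 0.61 there, ranks 284, 597 and 875, so the sign for Dlk1 differed between the experiments. The points share libraries and their scaling. Malat1, a non-coding RNA held in the nucleus that was looked up after the values of Meg3 were seen, was 93.7, 343 and 1329 FPM in replicates 1, 2 and 3 of 6w+dox and 146 to 456 in 12w-res, and it ranked the mice of both groups as Meg3 did. At 12w+dox the order differed, with Malat1 at 405, 246, 337 and 462 FPM in replicates 1 to 4, where replicate 1 was the lowest for Meg3. The part of this shared variation in the values of Meg3 was not tested.

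Plagl1, Peg3 and Ndn were not called in any long-term comparison. Plagl1 was 352 to 401 FPM at 6w+dox, 150 to 313 at 12w+dox and 259 to 394 in 12w-res. Its level at 12w+dox lay below 6w+dox in every mouse, by -0.65 ± 0.22 on the log2 scale (limma adjusted p = 0.0483), which is under the minimum fold, and scaled by total reads the change was -0.33 (limma adjusted p = 0.33). Peg3 was 61.9, 147 and 399 FPM at 6w+dox, 257 to 584 at 12w+dox and 172 to 327 in 12w-res. Its log2 change of 1.15 ± 0.46 at 12w+dox missed the adjusted p (limma, 0.0852), and without replicate 3 of 6w+dox it was 1.84 (limma adjusted p = 0.00188), while 12w-res against 6w+dox went from 0.62 with all mice to 1.31 (limma adjusted p = 0.00923). Ndn was 147 to 318, 150.2 to 300.1 and 199 to 228 FPM, with log2 changes between -0.07 and -0.00. Scaled by total reads, Peg3 changed by -1.19 (limma adjusted p = 0.0405), Ndn by -0.73 (limma adjusted p = 0.00292) and Rian by -0.84 (limma adjusted p = 0.0354) in 12w-res against 12w+dox, where the median of all genes was -0.61.

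Other imprinted genes were a list of 46, of which 35 were tested in the long-term table. At 12w+dox against 6w+dox 0 were called higher and 7 lower, where 3.15% of all genes were higher and 4.04% lower. Without the minimum fold 4 were higher and 9 lower, against 22.4% of all genes in either direction. The median log2 change of the list was -0.13, where the median of all genes was -0.01. The 7 were Asb4 (-3.92), Nnat (-3.03), Peg10 (-2.94), Begain, a neighbour of Dlk1 (-1.82), Klf14 (-1.35), Cdkn1c (-1.25) and Airn (-1.10). Nnat, a small membrane protein of endocrine and nerve cells, was 1959 to 4687 FPM in the 6w+dox mice and 116 to 1094 in the 12w+dox mice. Peg10, a retrotransposon-derived gene, was 127 to 298 and 23.6 to 33.4 FPM. Cdkn1c, an inhibitor of cyclin-dependent kinases and an imprinted neighbour of Igf2, was 35.2 to 53.7 and 12.4 to 30.6 FPM. From 12w+dox to 12w-res 3 of 35 were higher, Asb4 (1.46), H13 (1.21) and Airn (1.02), and 0 lower, against 6.24% and 5.04% of all genes. In 12w-res against 6w+dox 2 were higher, Kcnq1 (1.14) and Mest (1.10), and 6 lower, Peg10 (-2.85), Asb4 (-2.46), Nnat (-2.37), Begain (-2.14), Cdkn1c (-1.77) and Klf14 (-1.02). Of all genes 5.81% were higher and 5.82% lower there. Markers of several cell types were called lower beside them at 12w+dox. All 4 of the 4 neural lobe markers were, and their sum fell from 44.5 to 130 FPM at 6w+dox down to 4.05 to 13.4. So were 6 of 9 anterior hormone cell markers and 3 of 5 markers of stem and folliculostellate cells. Of the fibroblast markers 3 of 6 were lower, and of the endothelial markers 2 of 5. No pericyte, macrophage, melanotroph or proliferation marker was called lower. The part of each of these cell types was not tested.

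Of 18 listed genes of the IGF pathway 16 were tested. In 12w-res against 12w+dox 6 of them were higher, 0 lower and 10 not called, with a median log2 change of 0.70. Of all genes 6.24% were higher and 5.04% lower there. The 6 were Igfbp3 (2.02 ± 0.16), Igfbp7 (1.78 ± 0.22), Igfbp5 (1.53 ± 0.30), Igfbp6 (1.48 ± 0.32), Pappa2, a protease that cuts IGF-binding proteins (1.22 ± 0.43), and the growth factor Igf1 (1.05 ± 0.28). Igfbp3, the main carrier of IGFs in blood, was 55.0 to 89.8 FPM at 12w+dox and 238 to 359 in 12w-res. At 12w+dox against 6w+dox 1 was higher, the receptor substrate Irs2 (1.28), and 3 lower, Pappa2 (-2.24), Igf2bp2 (-1.42) and Igfbp5 (-1.32), against 3.15% and 4.04% of all genes. In 12w-res against 6w+dox Igfbp3 (1.45) and Igfbp7 (1.02) were higher, against 5.81% of all genes. Beside the rise from 12w+dox to 12w-res stood 6 of 6 fibroblast, 4 of 4 pericyte and 4 of 5 endothelial markers called higher, the last at 55.9 to 118 FPM summed at 12w+dox and 182 to 246 in 12w-res, none of them at 0, and their part was not tested. Igf1r and Igf2r, the receptors that bind Igf2, are named here after their values were seen. Igf1r had log2 changes between -0.09 and 0.03, and Igf2r, which is itself imprinted, was 0.75 higher in 12w-res than at 12w+dox (limma adjusted p = 0.0045), under the minimum fold.

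Of 12 genes that set or keep imprints, all tested, 0 were called with limma at 12w+dox against 6w+dox (2 at an unadjusted p under 0.05, against 36.5% of all genes). From 12w+dox to 12w-res 3 were lower, Uhrf1 (-3.67 ± 0.15), Dnmt1 (-1.27 ± 0.12) and Tet1 (-1.19 ± 0.18), and against 6w+dox 2 were lower, Uhrf1 (-3.26) and Dnmt1 (-1.11). Of all genes 5.04% and 5.82% were lower in these comparisons. Uhrf1 and Dnmt1 copy DNA methylation onto newly made strands. Uhrf1 was 28.7 to 29.3 FPM at 6w+dox, 28.7 to 45.1 at 12w+dox and 2.13 to 3.07 in 12w-res. All 6 proliferation markers, such as Mki67, were lower with them in 12w-res, at 52.0 to 58.1 FPM summed against 420 to 563 at 12w+dox, and their part was not tested.

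In the short-term mice none of the 10 genes was called in any comparison, and the depth there was lower than in the long-term mice. With limma 0 of 10 passed after 1, 3 or 5 days off dox against 16w +dox, or after 5 days against 1 day, where 0.043%, 0.129%, 0.193% and 0.0143% of all 13958 genes tested were called in either direction. At an unadjusted p under 0.05 there were 2, 3, 3 and 0 of the 10, against 13.1%, 16.6%, 13.5% and 6.33% of all genes. The groups did not overlap for 1, 2, 3 and 1 of the 10 genes, and for 11.2%, 21.6%, 19.3% and 7.8% of all genes. The median log2 change of the 10 was -0.20, 0.17, -0.07 and 0.09, where that of all genes was -0.00, 0.01, -0.00 and 0.00. With edgeR 0 of 10 and with DESeq2 0 of 10 were called in each of these comparisons.

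Meg3 was highest 3 days off dox, within males. It was 149, 138 and 138 FPM at 16w +dox, 97.9, 101, 123 and 163 after 1 day off, 195, 203 and 253 after 3 days, and 174, 135 and 126 after 5 days. All 3 mice at 3d -dox were above all the others. The 5 melanotroph markers summed to 35348 to 38216 FPM at 16w +dox and 12561 to 29077 at 3d -dox, without overlap and none at 0. Pomc made up most of that sum, at 34394 to 36965 FPM at 16w +dox and 11837 to 28065 at 3d -dox. Of the 5 markers, 2 had a log2 change above 0 and 3 below, with a median of -0.03 and 0 called. Of the genes that followed Meg3, Rsrc2 was 55.7 to 57.7 FPM at 16w +dox and 63.7 to 70.0 at 3d -dox, and Hmgn3 14.5 to 16.5 and 20.7 to 22.1, both without overlap. Their part in the level of Meg3 was not tested. The log2 change of Meg3 at 3d -dox was 0.60 ± 0.17 against 16w +dox (limma adjusted p = 0.12), and DESeq2 on the recovered reads gave 0.61 (DESeq2 adjusted p = 0.0245), under the minimum fold. Rian was 122, 97.4 and 122 FPM at 16w +dox and 131, 127 and 150.4 at 3d -dox, a log2 change of 0.27 ± 0.12 (limma adjusted p = 0.3). Mirg was 1.18 to 1.92 FPM at 16w +dox and 1.91 to 2.22 at 3d -dox, overlapping. The ratio of Meg3 to Rian FPM ran from 0.855 to 1.68 over the short-term mice, and the spread of Meg3 within groups was 0.25 on the log2 scale, where the median gene had 0.17.

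Dlk1 again mostly went with the anterior hormone cell markers, though less closely at 16w +dox. It was 7.54, 29.7 and 5.10 FPM at 16w +dox, 5.96, 3.02, 1.45 and 4.49 after 1 day off, 20.3, 8.61 and 50.1 after 3 days, and 3.98, 2.31 and 6.58 after 5 days. The summed markers were 199 to 251, 23.1 to 106, 169 to 891 and 25.8 to 102 FPM in the same groups, with 1 of the 9 markers at 0 in replicates 2 and 3 of 1d -dox and replicate 2 of 5d -dox. Per 1000 FPM of these markers Dlk1 was 25.6 to 118, 42.3 to 76.8, 39.7 to 56.2 and 64.4 to 89.7. At 16w +dox, replicate 2 held 29.7 FPM of Dlk1 at a sum of 251, against 7.54 and 5.10 FPM at sums of 199. The part of these cells was not tested. The log2 changes against 16w +dox were -1.52 ± 0.61 at 1d, 0.94 ± 0.65 at 3d and -1.31 ± 0.65 at 5d -dox (limma adjusted p = 0.3, 0.495 and 0.393). The spread of Dlk1 within groups, 0.99 on the log2 scale, was the 29th largest of 13958 genes.

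**Figure D5:**
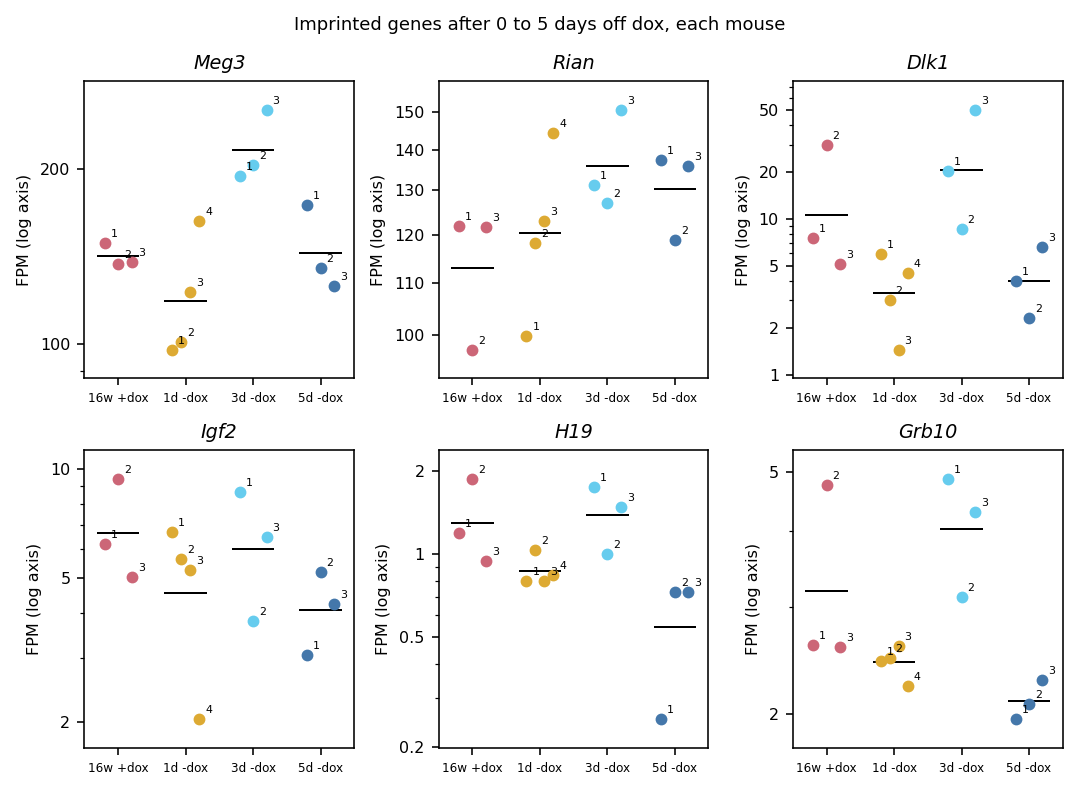
FPM (log axis, its range set for each gene) of Meg3, Rian, Dlk1, Igf2, H19 and Grb10 in each short-term mouse, with replicate numbers and a line at the mean of log2(FPM + 0.5). The 3d -dox mice are highest for Meg3 (195 to 253 FPM), and the 5d -dox mice lie below the 16w +dox mice for H19 and Grb10.

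H19 and Grb10 were lower 5 days off dox than on dox in every mouse, without passing the test. H19 was 1.20, 1.87 and 0.944 FPM at 16w +dox and 0.252, 0.727 and 0.732 at 5d -dox, with a log2 change of -0.78 ± 0.23 (limma adjusted p = 0.15). Grb10 was 2.60, 4.76 and 2.58 FPM at 16w +dox and 1.96, 2.08 and 2.28 at 5d -dox, with a log2 change of -0.50 ± 0.20 (limma adjusted p = 0.288). The 5d -dox mice were female and the 16w +dox mice male. Between the female groups, H19 at 5d -dox was below 1d -dox (0.798 to 1.04 FPM) in every mouse by -0.39 ± 0.21 (limma adjusted p = 0.777), and Grb10 overlapped. Igf2 was 5.03 to 9.38 FPM at 16w +dox, 2.03 to 6.70 after 1 day off, 3.79 to 8.67 after 3 days and 3.06 to 5.19 after 5 days, and no change passed the test. The summed fibroblast markers ran beside them, at 69.0 to 79.8 FPM at 16w +dox, 25.5 to 44.1 after 1 day off, 44.8 to 107 after 3 days and 25.3 to 51.9 after 5 days, and their part was not tested.

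Plagl1, Peg3 and Ndn stayed within narrow ranges in the short-term mice, at 109 to 162 FPM, 561 to 760 FPM and 39.9 to 68.8 FPM over all 13 mice. Ndn was higher in every 1d -dox and 5d -dox mouse than in the 16w +dox mice, by 0.27 ± 0.12 and 0.32 ± 0.12 on the log2 scale (limma adjusted p = 0.338 and 0.277), again across the sexes. Of the other imprinted genes 33 were tested, of the IGF pathway 15 and of the imprint genes 12, and with limma 0 were called in each of the 4 short-term comparisons. At an unadjusted p under 0.05 the other imprinted genes gave 8, 5, 6 and 4 in the comparisons at 1, 3 and 5 days against 16w +dox and of 5 days against 1 day, the IGF pathway 4, 2, 3 and 0, and the imprint genes 2, 0, 1 and 0, to be read against the same shares of all genes (13.1%, 16.6%, 13.5% and 6.33%). DESeq2 called 1 other imprinted gene at 1 day and 1 at 5 days, and edgeR 0.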

How the data were processed

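RNA was sequenced from 12 long-term and 13 short-term pituitaries. The authors deposited a signal per RefSeq gene and mouse, fragment counts scaled for depth by DESeq2 size factors (FPM), from reads aligned with STAR to mm10 and kept at 10 or more reads in over 50% of the samples of a condition. The counting tool and its use of strand are not given in the sources used here. The short-term unit was inferred from its values. Whole reads were recovered for 100% of values (within 0.1 of a read), and 4 short-term lines for reads not assigned to a gene (unmapped, multimapping, without a feature or ambiguous), 68.8% to 75.0% of each short-term library, were left out.

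FPM were tested as log2(FPM + 0.5) with limma 3.58.1 (R 4.3.3, trend), all groups of an experiment in a single fit, for genes with 10 or more reads in over 50% of a group (15315 and 13958 genes). P-values were adjusted by Benjamini-Hochberg over all of these. Alternatives were edgeR 4.0.16 and DESeq2 1.42.0 on the recovered reads, other scalings, pseudocounts and filters, sex, fewer samples and each mouse left out. The fit was tried on simulated reads, with the same dispersion for every gene and changes planted only in genes with many reads. That trial does not cover genes as variable within groups as Meg3 and Dlk1.

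The members, lists and tests were chosen with earlier results of these data known. Named genes are the 10 members, up to 8 called genes a list by absolute log2 fold change, and the 5 genes most correlated with Meg3. Replicate numbers did not pair mice. Replicates were taken as separate mice, and if any were not, p-values measure only the spread between samples. All replicate pairs differed by more than counting noise.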

Additional observations from a re-analysis of the deposited data

Results flagged for a closer look

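Among the 30 sets of values of a gene in a group of 4 or 5 mice that were looked at, 2 held a mouse far from the others by Dixon's 95% criterion, a number that chance alone can give at that level. Dlk1 in replicate 1 of 12w+dox was 484.9 FPM, with the nearest mouse of its group at 56.2. Dlk1 in replicate 1 of 12w-res was 560.5 FPM, with the nearest mouse at 206. Both mice also had the highest summed anterior hormone cell markers of their groups, and the part of those cells was not tested.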

How the results depend on the processing

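Counts of the 10 genes called stayed within 1.5 times under TMM scaling, both pseudocounts, edgeR, DESeq2, no filter, the compared groups alone, sex as a covariate and the replicate block. They moved to 0 with females alone at 12w+dox against 6w+dox. Between 12w+dox and 12w-res both calls, H19 and Grb10, were lost under scaling by totals, where 1 other gene was called, Peg3, lower. The count was 1 with at least 10 reads in every sample, and in 12w-res against 6w+dox 1 under that filter, which removes H19. Other imprinted genes called without a minimum fold were 13, 12 and 21 in the long-term comparisons, where 22.4%, 37.8% and 33.8% of all genes passed. With the minimum fold they were 5 under totals and 1 under the replicate block in 12w-res against 12w+dox, and 1 each with DESeq2 at 1 and 5 days off dox. Leaving out 1 mouse gave 3 to 5, 1 to 3 and 2 to 3 of the 10 genes and 6 to 8, 1 to 3 and 6 to 11 other imprinted genes. The 1 of 10 was without replicate 3 of 12w+dox. Except where stated, the cause was not tested.

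Single log2 changes that reversed were uncalled in the full fit. At 12w+dox against 6w+dox Meg3 was -0.67 with edgeR and -0.67 with DESeq2, Rian 0.025 and Ndn 0.33 under totals, and Ndn 0.016 under the replicate block. For 12w-res against 12w+dox Mirg was -0.48 and Plagl1 -0.18 under totals, and Ndn 0.051 with females alone. In 12w-res against 6w+dox Grb10 was 0.061 with sex as a covariate and 0.13 with females alone. Under totals Igf2 was 0.0046, Peg3 0.12 and Ndn 0.12 at 3 days, Meg3 -0.061 and Plagl1 -0.0044 at 5 days, and Ndn -0.025 at 5 days against 1 day.

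Leaving out 1 mouse at 12w+dox against 6w+dox moved Meg3 from -0.38 to 1.87, Rian from -0.54 to 0.16, Mirg from -1.16 to 0.12 and Ndn from -0.32 to 0.23. From 12w+dox to 12w-res Mirg ran from -0.017 to 0.44 and Ndn from -0.28 to 0.056. In 12w-res against 6w+dox Meg3 ran from -1.54 to 0.72, Mirg from -1.04 to 0.24, Peg3 from -0.034 to 1.31, Grb10 from -0.24 to 0.28 and Ndn from -0.39 to 0.16. At 1 day off dox Rian ran from -0.016 to 0.18 and Mirg from -0.20 to 0.089. At 3 days Igf2 ran from -0.38 to 0.16, H19 from -0.089 to 0.27, Peg3 from -0.12 to 0.052 and Ndn from -0.16 to 0.13, and at 5 days Meg3 from -0.12 to 0.11. At 5 days against 1 day Dlk1 ran from -0.12 to 0.55, Igf2 from -0.47 to 0.044 and Peg3 from -0.066 to 0.029.

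The replicate numbers share only a number. The deviations of same-numbered mice correlated above 0.1 in 1 of 10 long-term and 3 of 18 short-term pairs. Groups of 3 to 5 mice, and H19 at 6 to 38 reads at 6w+dox, limit what differences can be seen.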
